A study of Canis lupus familiaris with 15 samples.

Results

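WNT ligands, their receptors and their antagonists were examined in primary canine osteosarcoma, a malignant bone tumor whose cells lay down osteoid. The members were all genes annotated on the array as WNT with a number, FZD, SFRP or DKK, together with FRZB, WIF1, SOST, LRP5, LRP6, the R-spondins RSPO1, RSPO2 and RSPO3, and the intracellular genes APC, AXIN1, AXIN2, CTNNB1, LEF1, TCF7 and TCF7L2. This gave 50 of the 15115 named genes: 17 ligands, 11 receptors and co-receptors, 12 antagonists, 3 R-spondins, 4 cytoplasmic genes and 3 transcription factors. The ligands WNT2B and WNT5A and the receptor FZD1 are not among these members, so the classes are not complete. Each gene was represented by its brightest probeset that carries a single gene symbol. The choice used annotation and brightness alone, not the difference between the cohorts.

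Snap frozen tumors of 15 pet dogs were profiled on Affymetrix Canine 2.0 arrays with 1 array per dog, so every replicate is a separate animal. The cohorts were dogs that were free of disease for less than 100 days (DFI < 100, n = 8) and dogs that were free of disease for more than 300 days (DFI > 300, n = 7), and the question was which genes differ with outcome. All tumors were removed by amputation before any chemotherapy, and the dogs then received doxorubicin, cisplatin or carboplatin, so DFI follows treatment in every dog. The DFI < 100 dogs were 7.80 ± 2.28 years old (SD, n = 8), with 4 castrated males and 4 spayed females, and comprised 3 Greyhounds, a mixed breed, a Rottweiler, a Labrador Ret., a Doberman and a Golden Ret. The DFI > 300 dogs were 10.5 ± 2.27 years old (SD, n = 7), with 4 castrated males and 3 spayed females, and comprised 4 mixed breeds, a Greyhound, a Rottweiler and a Golden Ret. All 3 giant cell tumors were in DFI < 100, the 1 poorly differentiated tumor was in DFI > 300, and the other tumors were osteoblastic. Age, breed and subtype thus differ between the cohorts along with DFI. Below, dogs are named by the number in their sample labels.

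WNT proteins are secreted, lipid-modified signals that bind frizzled (FZD) receptors together with the co-receptors LRP5 and LRP6. In the canonical branch this stops the APC and AXIN complex from destroying beta-catenin, the product of CTNNB1, which then enters the nucleus and switches on genes with the TCF and LEF transcription factors. Secreted antagonists either bind the WNT proteins themselves (WIF1, the SFRP family and FRZB) or block the LRP co-receptors (DKK1, DKK2, DKK4 and SOST), while R-spondins keep receptors at the cell surface. In bone the pathway drives osteoblast formation, and sclerostin, the product of SOST, is the osteocyte's brake on it.

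Values are log2 of the PLIER signal, an estimate of probeset brightness from the probes that make it up, and 1 unit is a doubling. The array carries 64 reporter controls for sequences that are not part of the dog genome. The 95th percentile of their signals, averaged over the arrays, was 6.79, and a probeset whose mean over the 15 dogs lay at or below it is called near background. Probesets differ in how well they hybridise, so signals are compared between dogs for one probeset and not between genes. The tumors carried bone markers: 7 of the 8 measured osteoblast markers lay above the reporter level, all but BGLAP, and their mean over all 8 ran from 10.24 to 12.29 in DFI < 100 and from 10.63 to 11.47 in DFI > 300. All 5 macrophage markers and 5 of 6 osteoclast markers were also above the level, against 1 of 6 for skeletal muscle, 1 of 5 for osteocytes, 2 of 7 for cartilage and 0 of 5 for T cells. In such bulk tissue, fewer cells of a type and less RNA per cell cannot be told apart. The arrays were run in 2 batches that the labels do not assign to dogs, so no value within a batch could be given.

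Of the 50 members, 17 (34.0%) lay above the reporter level, compared with 42.7% of all named genes. The classes differed in this respect, but also in how many probesets a gene offers for the choice of the brightest. APC, AXIN1, AXIN2 and CTNNB1 have 5, 3, 6 and 2 probesets. Among the ligands only WNT3, WNT8B, WNT9B and WNT11 have more than 1. The part of probeset number in these shares was not tested. WNT3 was the 1 ligand of 17 above the level. The receptors above it were FZD2, FZD6, FZD7, FZD8, FZD10 and the co-receptor LRP6, 6 of 11, and the antagonists above it were WIF1, SFRP2, SFRP4, DKK3 and DKKL1, 5 of 12. All 4 cytoplasmic genes and the transcription factor TCF7L2 were above the level, whereas all 3 R-spondins were near background. FZD6, FZD8, WIF1, SFRP2, APC, AXIN2, CTNNB1 and TCF7L2 were above the level on every one of the 15 arrays. Of the 33 members near background, 23 were below the level on every array and 10 exceeded it in at least 1 dog, among them FRZB in 6 dogs.

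**Figure D1:**
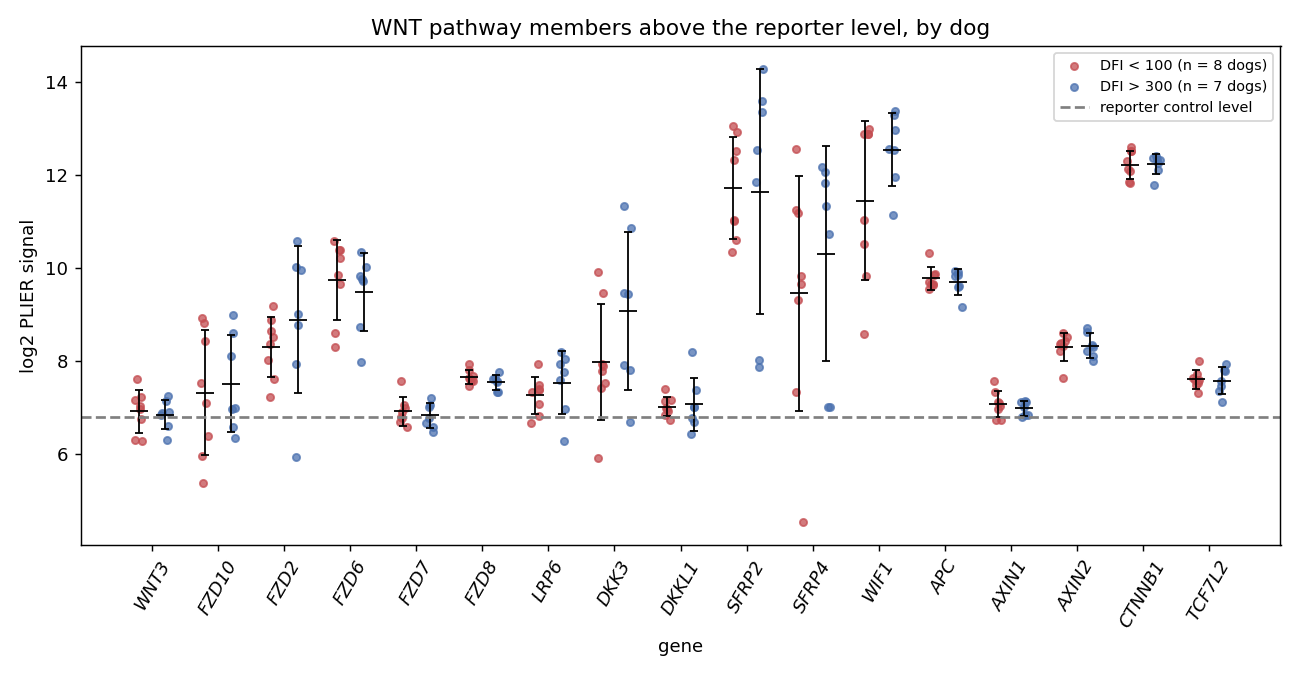
log2 PLIER signal of the 17 members above the reporter level, by gene along the horizontal axis. Each point is a dog, red for DFI < 100 (n = 8) and blue for DFI > 300 (n = 7), bars are the mean and SD of the cohort, and the dashed line is the reporter level of 6.79. Heights of different genes are not comparable. The spread between dogs, which also depends on the probeset, is widest for SFRP2, SFRP4, WIF1, DKK3, FZD2 and FZD10, and the cohorts overlap for every gene.

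No member separated the cohorts. By limma with Benjamini-Hochberg adjustment over 42860 probesets, 0 of the 50 members passed an adjusted p of 0.05 (every adjusted p at 0.999 or above), as did 0 of all probesets. At an unadjusted p under 0.05 there were 3 members, WNT7A and DKK4 higher and RSPO1 lower in DFI < 100, all near background. This is 3 of 50 beside 3.68% of all probesets (1.83% higher and 1.85% lower), and the methods' t-test gave the same 3 members beside 3.66%. A fold above 3 together with such a p was found in 0 members and in 0.345% of probesets, and 0 members had cohorts that did not overlap, beside 0.0187%. Among the members 26 were higher and 24 lower in DFI < 100, compared with 50.9% of all probesets and 7984 of the 15115 named genes higher. The median difference of the members was 0.02, beside 0.02 over all named genes. The p given below for single members comes from an exact permutation test (2-sided) of the mean difference, which runs through every one of the 6435 ways to part the 15 dogs into cohorts of these sizes, and it is not adjusted, since the limma p adjusted over all probesets was at least 0.999 for each. By that test 4 of 50 members were under 0.05, WNT3A beside the 3 named, compared with 3.98% of all probesets. The limma count of 3 rested on single dogs, from 1 without 184844, 168327 or 188084 to 5 without 193231. It was 0 without the 4 Greyhounds. That fit lost 3 of 8 DFI < 100 dogs and 1 of 7 DFI > 300 dogs. There WNT7A, DKK4 and RSPO1 differed by 0.54, 0.28 and -0.52, with unadjusted limma p of 0.0501, 0.125 and 0.0734.

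**Figure D2:**
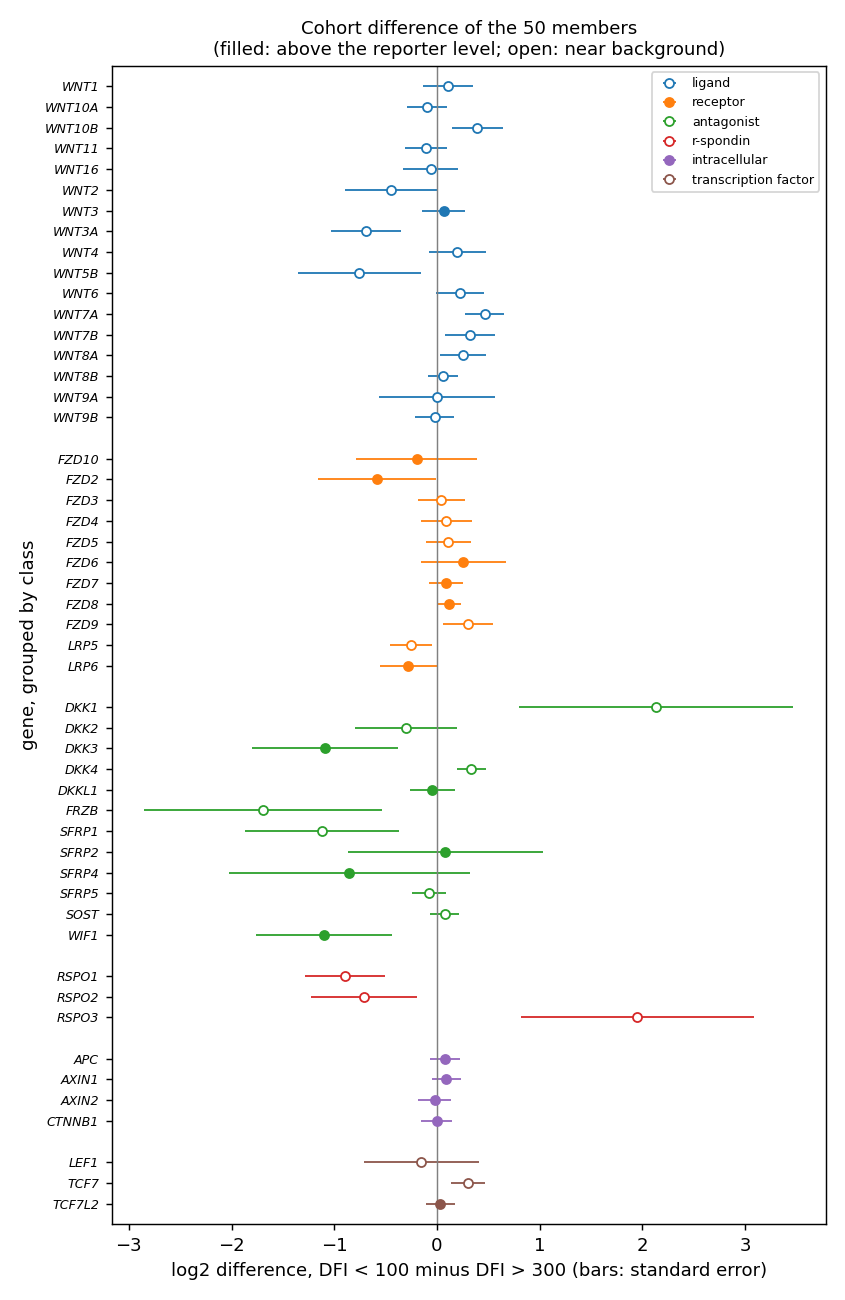
Difference in mean log2 signal, DFI < 100 minus DFI > 300, for all 50 members grouped by class, with standard errors from limma. Filled circles are members above the reporter level and open circles members near background. The differences run from -1.69 (FRZB) to 2.13 (DKK1), the widest bars belong to antagonists and R-spondins, and the cytoplasmic genes lie between -0.02 and 0.09.

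Among the antagonists, 8 of 12 were lower and 4 higher in DFI < 100, with a median difference of -0.19. Over all named genes, 7131 of 15115 were lower and the median difference was 0.02. The lower antagonists were 4 of the 5 above the reporter level and 4 of the 7 near background. An unadjusted limma p under 0.05 was found for 1 of 12 (DKK4, higher), beside 3.68% of all probesets. WIF1, a secreted protein that binds WNTs directly and is made in bone, had the lowest p of the members above the reporter level. Its signal ran from 8.58 to 12.98 in DFI < 100 (median 11.95) and from 11.13 to 13.38 in DFI > 300 (median 12.55). In 4 of the 8 DFI < 100 dogs (153599, 208756, 173175 and 223986, at 8.58, 9.82, 10.50 and 11.02) WIF1 lay below every DFI > 300 dog, whereas the other 4 were between 12.87 and 12.98, inside the DFI > 300 range. The mean was 11.44 ± 1.71 (SD, n = 8) in DFI < 100 and 12.54 ± 0.79 (SD, n = 7) in DFI > 300. The difference of -1.10 (SE 0.66, 95% interval -2.51 to 0.31) had an exact permutation p of 0.143. It was negative in every alternative run, from -0.69 without dog 153599 to -1.59 without the Greyhounds. In osteoblastic tumors alone it was -1.34, with an unadjusted limma p under 0.05, which no other of the 24 alternatives gave. None of them gave WIF1 an adjusted p under 0.05. The low dogs were not of one subtype, since 153599 had a giant cell tumor and the other 3 osteoblastic ones, and the other 2 giant cell tumors both read 12.88.

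DKK3, which carries the dickkopf name but does not block LRP5 or LRP6 as DKK1 does, was also lower in mean. It ran from 5.91 to 9.91 in DFI < 100 (median 7.83) and from 6.68 to 11.33 in DFI > 300 (median 9.45). Dogs 168327 and 188084 of DFI > 300, at 11.33 and 10.85, lay above all DFI < 100 dogs, dog 212759 of DFI < 100, at 5.91, lay below all DFI > 300 dogs, and the others overlapped. The difference was -1.09 (SE 0.71, exact permutation p = 0.172). Single dogs moved it from -0.72 without 168327 to -1.49 without 180119, where the unadjusted limma p fell under 0.05.

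The secreted frizzled-related proteins SFRP2 and SFRP4, which bind WNT through a frizzled-like domain, varied among dogs more than nearly all other probesets above the reporter level. SFRP2 ran from 10.34 to 13.06 in DFI < 100 (median 11.67) and from 7.87 to 14.28 in DFI > 300 (median 12.52). The DFI > 300 dogs held both extremes, with 180119 and 193231 at 7.87 and 8.02 below all other dogs and 180223, 208513 and 190030 at 14.28, 13.59 and 13.34 above all others. The cohort means were 11.72 ± 1.09 (SD, n = 8) and 11.64 ± 2.64 (SD, n = 7), a difference of 0.08 (SE 0.95, 95% interval -1.95 to 2.11, exact permutation p = 0.938). Its sign rested on single dogs, from -0.55 without 180119 to 0.52 without 180223. SFRP4 ran from 4.53 to 12.56 in DFI < 100 (median 9.73) and from 7.00 to 12.16 in DFI > 300 (median 11.34). Both its lowest dog, 212759, and its highest, 223986, belonged to DFI < 100, and the DFI > 300 dogs split into 5 at 10.74 or above and 193231 and 208513 at 7.01 and 7.00. The difference was -0.85 (SE 1.17, exact permutation p = 0.512), and it ran from -0.15 without 212759 to -1.41 without 208513, and was -1.68 without the Greyhounds. DKKL1, a relative of the dickkopf genes best known from the testis, was even across dogs except for 208513 at 8.18. It ran from 6.73 to 7.39 in DFI < 100 (median 6.97) and from 6.43 to 8.18 in DFI > 300 (median 7.00), a difference of -0.05 (SE 0.22, exact permutation p = 0.863).

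The size of this spread, which also depends on the probeset, can be set beside that of the 14518 probesets above the reporter level. Their median SD over the 15 dogs was 0.51. The SD of SFRP4 (2.38) exceeded that of 99.7% of them, SFRP2 (1.89) 99.4%, DKK3 (1.52) 98.6% and WIF1 (1.43) 98.1%. FZD10 (1.18) and FZD2 (1.17) exceeded 96.1% and 96.0%. Of the 17 members above the level these 6 had an SD over 1, compared with 1022 of the 14518 probesets. At the other end, the cytoplasmic genes had an SD of 0.23 to 0.27, and that of AXIN2, the most variable of these 4, exceeded 7.23% of the same probesets.

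**Figure D3:**
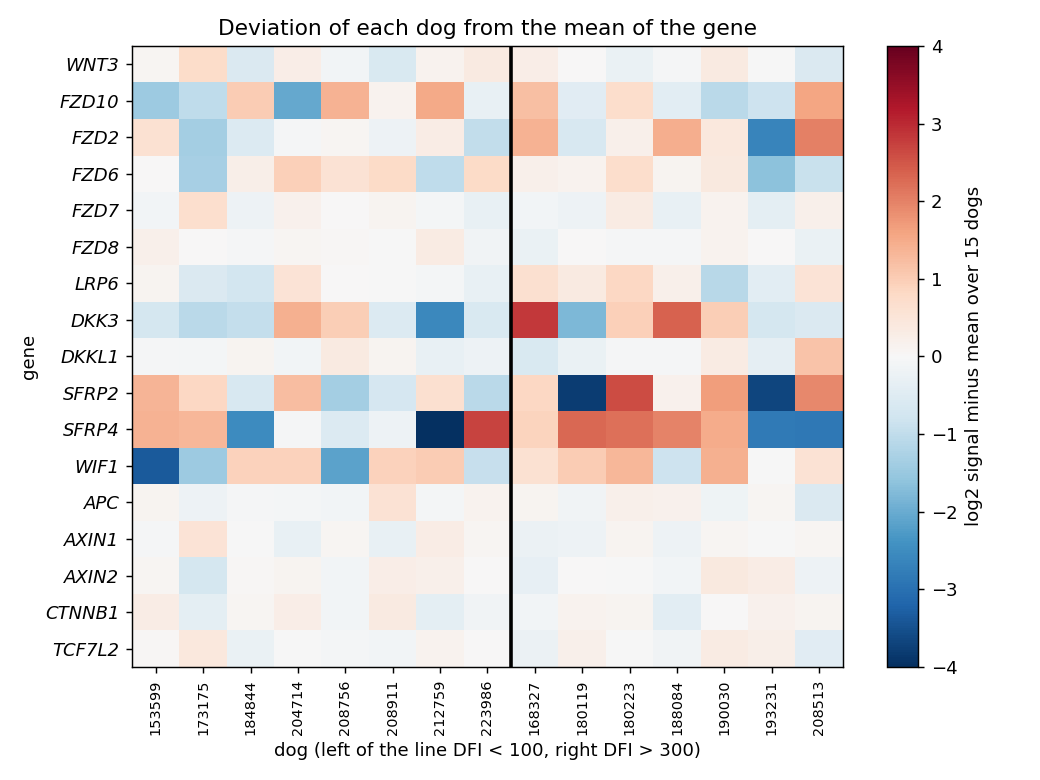
log2 signal of each dog minus the mean over 15 dogs, for the 17 members above the reporter level (rows) in the 8 DFI < 100 dogs (left of the line) and the 7 DFI > 300 dogs (right). Red is above and blue below the mean, with colors held at 4 units. Strong color is seen in the rows for DKK3, SFRP2, SFRP4, WIF1, FZD2 and FZD10 and falls in different dogs from row to row, while FZD8, APC, AXIN1, AXIN2, CTNNB1 and TCF7L2 are pale.

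Separate probesets of WIF1, SFRP2 and SFRP4 gave closely similar patterns across dogs. WIF1, SFRP2 and SFRP4 are each covered by 3 probesets, all above the reporter level, and over the 15 dogs Pearson's r between probesets of one gene ran from 0.963 to 0.998 for WIF1 and from 0.987 to 0.998 for SFRP2, while for SFRP4 it was 0.99 for each pair. The dimmer WIF1 probesets gave cohort differences of -1.47 and -1.54, the dimmer SFRP4 probesets -1.20 and -1.07, the dimmer SFRP2 probesets 0.16 and -0.13, and the second DKK3 probeset -0.73 (r = 0.80). FZD6 (r = 0.97) and CTNNB1 (r = 0.74) also held their pattern. In contrast, the brightest AXIN2 probeset had an r of -0.07 to 0.01 with the other 5 AXIN2 probesets, all of them near background. The 5 APC probesets had an r of -0.34 to 0.58 among themselves, and the highest of these was between the brightest and second APC probesets, both above the reporter level. The brightest and second TCF7L2 probesets, with means of 7.59 and 7.01, were also both above the level, and their r was 0.03. These probesets share the arrays and the samples, so the correlations describe measurement rather than independent dogs.

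**Figure D4:**
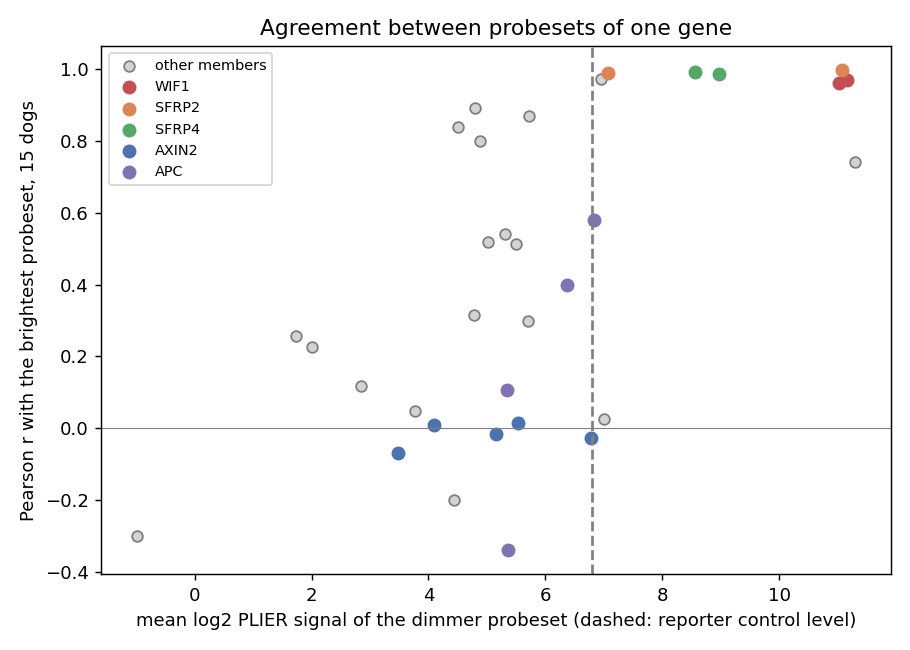
Pearson's r over 15 dogs between each dimmer probeset of a member and the brightest probeset of the same gene, against the mean log2 signal of the dimmer one, with the reporter level dashed. The WIF1, SFRP2 and SFRP4 probesets lie at 0.96 or above, and those of AXIN2, all below the reporter level, lie around 0.

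Across the 20 members with more than 1 probeset, 15 of the 33 dimmer probesets had a cohort difference of the opposite sign to the brightest, in 11 members. Of these only 3 were above the reporter level, 1 each of SFRP2, APC (-0.05) and CTNNB1 (0.04). Those near background included the second probesets of WNT3 (-0.97), FZD7 (-0.16), FZD8 (-0.26) and AXIN1 (-0.19). Among the 33 there were 2 with an unadjusted p under 0.05 by limma, both near background, beside 3.68% of all probesets. A second WNT11 probeset was higher in DFI < 100 by 0.32 (SE 0.14, exact permutation p = 0.0214) where the brightest was at -0.11, and the dimmest TCF7L2 probeset was higher by 0.58 (SE 0.26, exact permutation p = 0.0499) with an r of 0.05 to the brightest.

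Receptors above the reporter level showed no shift in a common direction, 3 being higher and 3 lower. FZD2, a frizzled that serves both canonical and WNT5A-type signals, ran from 7.21 to 9.17 in DFI < 100 (median 8.44) and from 5.92 to 10.57 in DFI > 300 (median 9.01). The DFI > 300 dogs spanned both extremes, with 193231 at 5.92 below all others and 208513, 188084 and 168327 above all DFI < 100 dogs. The difference was -0.58 (SE 0.57, exact permutation p = 0.360). It was -1.08 without 193231, where the unadjusted limma p fell under 0.05, -0.30 without 208513 and -0.15 without the Greyhounds. FZD10 ran from 5.36 to 8.92 in DFI < 100 (median 7.31) and from 6.33 to 8.99 in DFI > 300 (median 6.99), with high and low dogs in both cohorts and a difference of -0.20 (SE 0.59, exact permutation p = 0.751). Without the Greyhounds it was 0.26 and in osteoblastic tumors alone 0.33.

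FZD6, a frizzled with roles in planar cell polarity, ran from 8.30 to 10.58 in DFI < 100 (median 10.02) and from 7.96 to 10.34 in DFI > 300 (median 9.77). Dogs 193231 and 173175, one of each cohort, were lowest, and the difference was 0.26 (SE 0.42, exact permutation p = 0.559), or -0.18 without the Greyhounds. LRP6, the co-receptor phosphorylated when WNT binds, ran from 6.66 to 7.92 in DFI < 100 (median 7.34) and from 6.27 to 8.20 in DFI > 300 (median 7.75). Its cohorts overlapped with 3 DFI > 300 dogs above all DFI < 100 dogs, and the difference was -0.28 (SE 0.28, exact permutation p = 0.344), or -0.17 without dog 180223, -0.49 without 190030 and -0.47 in osteoblastic tumors alone. LRP5, the other co-receptor, was near background with a difference of -0.25. FZD7 ran from 6.58 to 7.56 in DFI < 100 (median 6.83) and from 6.47 to 7.21 in DFI > 300 (median 6.77), a difference of 0.09 (SE 0.16, exact permutation p = 0.586), and it was above the reporter level in 7 of 15 dogs.

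FZD8 was the steadiest member, with an SD of 0.16 that only 0.70% of probesets above the reporter level undercut. It ran from 7.46 to 7.92 in DFI < 100 (median 7.62) and from 7.33 to 7.75 in DFI > 300 (median 7.56), and its cohorts overlapped with a difference of 0.12 (SE 0.11, 95% interval -0.12 to 0.36, exact permutation p = 0.153). With age as a covariate the difference was 0.26 and the unadjusted limma p was under 0.05. The 5 receptors near background were FZD3, FZD4, FZD5, FZD9 and LRP5, with differences from -0.25 to 0.30, that of FZD9 being the largest (SE 0.24, exact permutation p = 0.251), though it was 0.16 without dog 190030 and 0.11 with age as a covariate.

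The ligands among the members, which leave out WNT2B and WNT5A, were nearly all dim. WNT3, a canonical ligand, ran from 6.27 to 7.61 in DFI < 100 (median 6.99) and from 6.31 to 7.25 in DFI > 300 (median 6.87), around the reporter level. The DFI < 100 range enclosed every DFI > 300 dog, with 1 dog above and 2 below them all. The difference was 0.07 (SE 0.21, exact permutation p = 0.749). A second WNT3 probeset, near background, was at -0.97 (SE 1.38, exact permutation p = 0.969). WNT7A, at 3.28 to 3.97 in DFI < 100 (median 3.36) and 2.33 to 3.53 in DFI > 300 (median 3.26), was higher in DFI < 100 by 0.46 (SE 0.19, exact permutation p = 0.0244, adjusted p = 0.999). It lay far under the reporter level in every dog, 5 DFI > 300 dogs were below all DFI < 100 dogs, and with 16 added to each signal before the log the difference was 0.16 and its unadjusted limma p was no longer under 0.05. WNT5B, a ligand of the non-canonical branch, had the largest difference among the ligands. It ran from 3.12 to 6.86 in DFI < 100 (median 5.47) and from 4.32 to 7.31 in DFI > 300 (median 6.61), and the difference of -0.76 (SE 0.60) had an exact permutation p of 0.254. It was -0.43 without dog 208911. The other 14 ligands were WNT1, WNT2, WNT3A, WNT4, WNT6, WNT7B, WNT8A, WNT8B, WNT9A, WNT9B, WNT10A, WNT10B, WNT11 and WNT16, all near background. Their differences lay between -0.69 (WNT3A) and 0.39 (WNT10B), and 0 of these 14 had an unadjusted p under 0.05 by limma or by the methods' t-test, while WNT3A had an exact permutation p of 0.0348.

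WNT genes often lie side by side in the genome, and 4 neighbouring pairs were found among the 48 of 50 members matched to the RefSeq annotation of the dog assembly UU_Cfam_GSD_1.0. The pairs were WNT3A with WNT9A, WNT10B with WNT1, WNT6 with WNT10A and WNT9B with WNT3. Their cohort differences had the same sign in 1 of the 4 pairs (WNT10B and WNT1), and r between neighbours over 15 dogs was 0.01, 0.24, 0.53 and -0.13 in that order. In each pair at least 1 gene was near background.

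The antagonists and R-spondins near background held the widest differences of all. DKK1, the classic blocker of LRP co-receptors and itself a target of beta-catenin, ran from 2.03 to 7.63 in DFI < 100 (median 3.59) and from -5.14 to 4.80 in DFI > 300 (median 3.25). It was above the reporter level in 1 dog, 184844, and next highest in 153599 at 6.47. The difference of 2.13 (SE 1.33, exact permutation p = 0.159) was 0.93 without dog 190030, whose value was -5.14, 0.63 with 16 added to each signal and 0.46 with age as a covariate. RSPO3, an R-spondin, ran similarly wide, at 2.69 to 8.82 in DFI < 100 (median 5.91) and -1.26 to 6.44 in DFI > 300 (median 4.78). Dogs 204714 and 208911, both with giant cell tumors of DFI < 100, stood at 8.82 and 8.78 and were the 2 dogs above the reporter level, while the remaining giant cell tumor (153599) read 2.69. The difference was 1.95 (SE 1.14, exact permutation p = 0.133) and it was 1.06 without dog 190030, 1.12 with 16 added to each signal and 0.55 with age as a covariate.

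FRZB, an SFRP family antagonist first known from cartilage, ran from 0.80 to 11.11 in DFI < 100 (median 5.64) and from 4.60 to 9.11 in DFI > 300 (median 7.66). Its difference of -1.69 (SE 1.16, exact permutation p = 0.200) was -0.99 without 153599, the lowest dog, and -2.46 without 208756, the highest. Dog 208756 also had the highest mean over the 7 cartilage markers, 7.74, where the means ran from 5.53 to 7.74 in DFI < 100 and from 3.63 to 7.24 in DFI > 300. Of those markers ACAN and COMP were above the reporter level over the series, and the part of cartilage in the FRZB values was not tested. SFRP1 differed by -1.12, or by -0.55 without dog 168327 and -1.76 with age as a covariate. DKK2 was high in 1 dog of each cohort, 204714 at 8.08 and 168327 at 9.38, with all others between 5.52 and 6.43.

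DKK4 and RSPO1 were the other members with an unadjusted limma p under 0.05. DKK4, an LRP blocker of the dickkopf family, ran from 4.61 to 5.48 in DFI < 100 (median 5.01) and from 4.39 to 4.94 in DFI > 300 (median 4.75), and it was higher in DFI < 100 by 0.34 (SE 0.14, exact permutation p = 0.0137, adjusted p = 0.999). In 6 of the 8 DFI < 100 dogs DKK4 lay above every DFI > 300 dog, although the whole range of both cohorts was under the reporter level. RSPO1 ran from -0.41 to 2.69 in DFI < 100 (median 1.73) and from 1.65 to 3.08 in DFI > 300 (median 2.52), with a difference of -0.89 (SE 0.39, exact permutation p = 0.0340, adjusted p = 0.999). With 16 added to each signal it was -0.16, and without the Greyhounds -0.52, and in both the unadjusted limma p was no longer under 0.05. When each dog was left out in turn, WNT7A kept an unadjusted limma p under 0.05 in 11 of 15 fits, DKK4 in 10 and RSPO1 in 9. With age as a covariate DKK4 kept it, while WNT7A and RSPO1 did not, and in osteoblastic tumors alone DKK4 and RSPO1 kept it, while WNT7A did not. SOST, SFRP5 and RSPO2 were near background as well, with differences of 0.08, -0.08 and -0.71. For SOST, 4 of the 5 osteocyte markers measured (DMP1, MEPE, PHEX and FGF23) were near background too, over the mean of the 15 dogs.

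**Figure D5:**
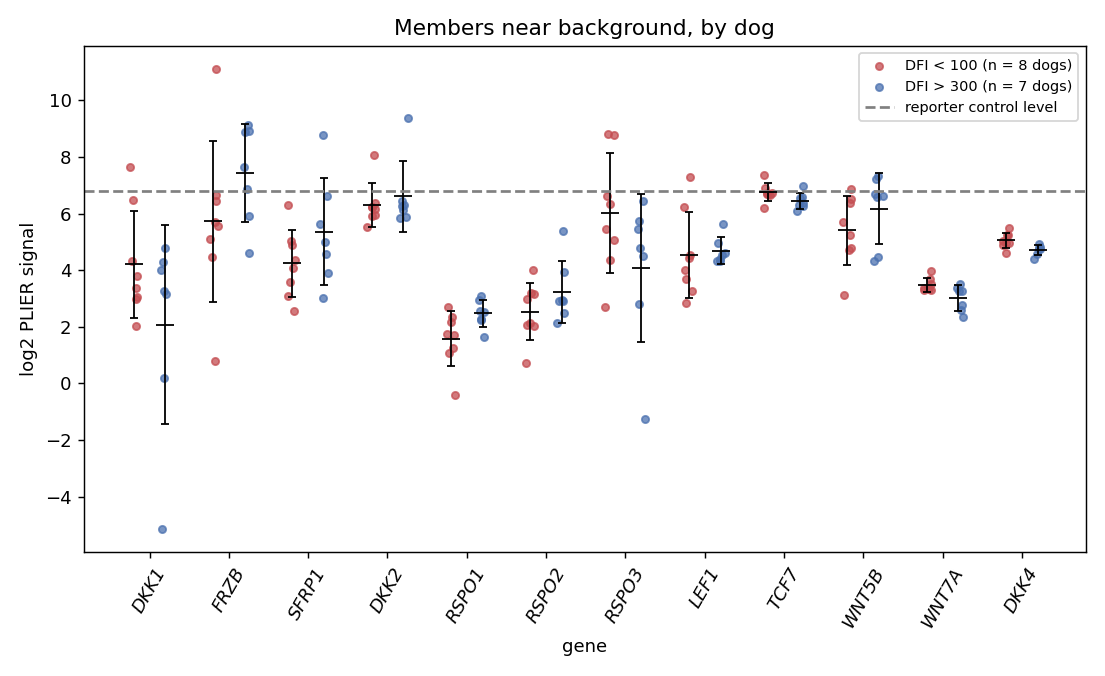
log2 PLIER signal by dog for 12 members near background, red for DFI < 100 (n = 8) and blue for DFI > 300 (n = 7), with cohort means and SD and the reporter level dashed at 6.79. All points of WNT7A, DKK4 and RSPO1, the members with an unadjusted limma p under 0.05, lie below the line with cohorts that overlap in part, and single dogs such as the DKK1 value of -5.14 stretch the means.

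The 4 cytoplasmic genes had cohort differences between -0.02 and 0.09, and 0 of the 4 had an unadjusted p under 0.05 by limma, by the methods' t-test or by the exact permutation test. CTNNB1, the gene for beta-catenin, ran from 11.82 to 12.59 in DFI < 100 (median 12.20) and from 11.78 to 12.40 in DFI > 300 (median 12.32). Its cohorts overlapped and the difference was 0.00 in size (SE 0.15, 95% interval -0.33 to 0.32, exact permutation p = 0.985). The 3 DFI < 100 dogs above all DFI > 300 dogs were those with giant cell tumors, 208911, 153599 and 204714, at 12.59, 12.52 and 12.50. In osteoblastic tumors alone the CTNNB1 difference was -0.26. The part of subtype in the CTNNB1 values was not tested. The array reads RNA, and beta-catenin is regulated mainly as a protein, which was not measured here. APC, the scaffold of the destruction complex, ran from 9.53 to 10.31 in DFI < 100 (median 9.67) and from 9.16 to 9.93 in DFI > 300 (median 9.82), a difference of 0.08 (SE 0.15, exact permutation p = 0.577). AXIN1, its limiting partner, ran from 6.72 to 7.56 in DFI < 100 (median 7.06) and from 6.79 to 7.14 in DFI > 300 (median 7.01), a difference of 0.09 (SE 0.14, exact permutation p = 0.457).

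AXIN2, widely used as a readout because beta-catenin switches it on, ran from 7.62 to 8.59 in DFI < 100 (median 8.37) and from 7.99 to 8.71 in DFI > 300 (median 8.29). Dog 173175 lay below all DFI > 300 dogs and dogs 190030 and 193231, at 8.71 and 8.62, above all DFI < 100 dogs, while the others overlapped, and the difference was -0.02 (SE 0.16, 95% interval -0.36 to 0.32, exact permutation p = 0.897). As given above, the other AXIN2 probesets, all near background, did not follow this one across dogs. TCF7L2, a nuclear partner of beta-catenin, ran from 7.31 to 8.00 in DFI < 100 (median 7.59) and from 7.12 to 7.92 in DFI > 300 (median 7.56), a difference of 0.03 (SE 0.14, exact permutation p = 0.796). TCF7 was near background at 6.21 to 7.37 in DFI < 100 and 6.10 to 6.98 in DFI > 300, with a difference of 0.30 (SE 0.17, exact permutation p = 0.0754). LEF1, also near background, differed by -0.15 (SE 0.56, exact permutation p = 0.810), with dogs 173175 and 208911 highest at 7.30 and 6.22.

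Members were also set against each other across dogs. Of 14 listed relations among AXIN2, LEF1, TCF7, DKK1, CTNNB1, WIF1, SOST, FRZB and cell type markers, 3 had both sides above the reporter level and were run. AXIN2 and CTNNB1 gave r = 0.51 (permutation p = 0.063, adjusted over the 3 relations 0.189) and Spearman's rho of 0.51 (permutation p = 0.055, adjusted 0.133), which did not pass. Without dogs 173175 and 190030 r was 0.37, and within DFI < 100 and DFI > 300 it was 0.59 and 0.36. AXIN2 with WIF1 gave r = 0.35 (permutation p = 0.225, adjusted 0.338) and rho of 0.46 (permutation p = 0.089, adjusted 0.133), and r was 0.11 without the same dogs. WIF1 with the mean of the osteoblast markers gave r = 0.19 (permutation p = 0.502, adjusted 0.502) and rho of 0.08 (permutation p = 0.796, adjusted 0.796), with 0.39 within DFI < 100 and -0.53 within DFI > 300, and r was 0.49 without dogs 173175 and 204714.

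The 6 members with an SD over 1 above the reporter level were then compared in all 15 pairs, a family chosen after the data were seen, and 0 pairs passed adjustment. The pair with the smallest p was FZD2 with SFRP2, with r = 0.64 (permutation p = 0.0127, adjusted 0.191) and rho of 0.63 (permutation p = 0.0137, adjusted 0.205). It rested on dogs 193231, low for both genes, and 208513, high for both, since r was 0.38 without them, and within cohorts it was 0.28 in DFI < 100 and 0.75 in DFI > 300. SFRP2 and SFRP4, members of one family, had an r of 0.07 (permutation p = 0.777, adjusted 0.924) and WIF1 and SFRP4 an r of -0.24 (permutation p = 0.401, adjusted 0.788).

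Some dogs stood at the edge of several members at once. Every member has a highest and a lowest dog, and the same counts over all probesets were not made. Dog 173175 (DFI < 100, osteoblastic) had the highest value of 8 members, among them WNT3, FZD7, AXIN1, LEF1, TCF7 and TCF7L2. Of those 8 members 4 were above the reporter level. Dog 173175 also had the lowest AXIN2 and the highest mean over the osteoblast markers. Dog 208513 (DFI > 300, a Greyhound) had the highest value of 7 members, of which 3 were above the reporter level (FZD2, FZD10 and DKKL1). It had the lowest of 6, of which 3 were above the level (APC, FZD8 and TCF7L2). It also had the lowest means over the osteoclast, endothelial and macrophage markers, at 5.24, 6.65 and 6.31, and the part of those cells in its WNT values was not tested. Dog 190030 had the lowest value of 7 members, among them DKK1, RSPO3 and LRP6. Of those 7 only LRP6 was above the reporter level. Dog 190030 had the highest WIF1 and AXIN2. It also had the lowest means over the cartilage and T cell markers, at 3.63 and 4.23. Of these markers only ACAN and COMP were above the reporter level over the series. The part of those cells in the WNT values of dog 190030 was not tested.

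The rest of the pathway was read from a list of 88 further gene symbols, which covers the DVL, GSK3, casein kinase and TLE families, WNT secretion, the co-receptors of R-spondins and the planar polarity and calcium branches. Some of the symbols name the same gene, such as WLS and GPR177. Of the 88 symbols 75 were measured and 34 were above the reporter level, where 42.7% of all named genes were. In DFI < 100, 44 were higher and 31 lower, beside 50.9% of all probesets and 7984 of the 15115 named genes higher. Their median difference was 0.06, beside 0.02 over all named genes. By limma 0 passed adjustment, while 3 of 75 had an unadjusted p under 0.05, beside 3.68% of all probesets. CAMK2D, a calcium-dependent kinase of the non-canonical branch and the 1 of these above the reporter level, ran from 7.31 to 9.07 in DFI < 100 (median 8.42) and from 8.40 to 9.96 in DFI > 300 (median 8.68), a difference of -0.63 (SE 0.28, exact permutation p = 0.0446, adjusted p = 0.999). Near background, LGR5, a receptor for R-spondins, was at 0.52 (SE 0.23, exact permutation p = 0.0424, adjusted p = 0.999) and RSPO4 at 0.46 (SE 0.21, exact permutation p = 0.0371, adjusted p = 0.999). The exact test put 4 of the 75 under 0.05, beside 3.98% of all probesets, and the one added was CSNK1A1 (exact permutation p = 0.0482), a casein kinase above the reporter level with a difference of -0.34. Of the 15 fits that each omit 1 dog, 8 gave CAMK2D an unadjusted limma p under 0.05, 10 LGR5 and 6 RSPO4.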

How the data were processed

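RNA from 15 tumors was hybridised by the authors to 1 array each. The deposited values are intensities, 1 PLIER signal per probeset on the linear scale, made in Affymetrix Expression Console. Not given in the sources used here are its version, how probes were normalized before PLIER and which array belonged to which batch. Linear values ran down to 0.000147, so dim probesets can spread widely on a log scale. Of 43035 probesets, 175 controls were left out. Without an offset, the deposited intensities were put on the log2 scale. The cohorts named in the sample labels were compared over 42860 probesets by limma 3.58.1 (R 4.3.3), with Benjamini-Hochberg adjustment. Gene symbols came from the platform annotation. Of the probesets, 29254 carry 1 symbol, 439 several and 13167 none, and members were taken only from the first kind. Sex, subtype and drug come from the study's methods, by dog number. The exact permutation test of single members compared the absolute difference of cohort means over all 6435 splits and was added after the data were seen. Correlations over 15 dogs used 100000 permutations (scipy 1.17.1), and exact ones within cohorts.

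Members above the reporter level and members with an unadjusted limma p under 0.05 are described in full. The largest difference of each class is given by value, and the rest by counts and ranges. Outside that rule, FRZB, DKK2, SFRP1, SFRP5, SOST, RSPO2, LEF1, LRP5, WNT3A, WNT10B and CSNK1A1 were given values after these were seen. The members, lists and tests were chosen with earlier results of these data known. Alternatives were the methods' t-test (unpaired, equal variances), limma with a trend and robust prior, an offset of 16, quantile normalization, a filter on dim probesets, age as a covariate, osteoblastic tumors alone, no Greyhounds, all probesets of a gene averaged, other reporter levels and each dog left out in turn. The fit was tested on simulated data. Arrays have no read depth, and their number limits the precision.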

Additional observations from a re-analysis of the deposited data

Results flagged for a closer look

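Each cohort of each member was searched for a dog whose gap to its nearest neighbour exceeded the 95% critical value of Dixon's test. Of 100 such groups 8 held one, where chance gives about 5%, and 3 of the 8 were in members above the reporter level. Dog 173175 of DFI < 100 was apart in FZD7, at 7.56 with the other 7 dogs between 6.58 and 7.04, and in AXIN2, at 7.62 with the others between 8.21 and 8.59. Dog 208911 of DFI < 100 was apart in APC, at 10.31 with the others between 9.53 and 9.87.

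The other 5 were near background. DKK2 was 8.08 in dog 204714 with the other DFI < 100 dogs between 5.52 and 6.38, and 9.38 in dog 168327 with the other DFI > 300 dogs between 5.85 and 6.43, so that the DKK2 value of 1 dog in each cohort lay above the reporter level of 6.79. Dog 204714 was low in WNT2, at -0.60 with the others between 1.31 and 2.81. Dog 208756 was low in WNT3A, at 1.004 with the others between 2.63 and 3.64. Dog 168327 was low in WNT4, at 3.99 with the other DFI > 300 dogs between 5.31 and 6.08. Of the 8 values 4 were low and 4 high.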

How the results depend on the processing

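An adjusted p under 0.05 was reached by 0 members under any of the 24 alternatives to the cohort comparison, and by 2 of all probesets once the Greyhounds were left out. Of 25 members followed through these alternatives, 14 kept the sign of their difference in every alternative that included them (WNT7A, FZD2, LRP6, DKK3, DKK4, SFRP4, WIF1, RSPO1, AXIN1, WNT5B, FZD9, DKK1, RSPO3 and TCF7), of which the filter on dim probesets leaves out WNT7A, DKK4, RSPO1, FZD9, DKK1 and RSPO3, and 11 turned in at least 1. The number of members with an unadjusted limma p under 0.05 was 0 without the Greyhounds and 0 among the 23 members above the median probeset. In the latter the dim members are dropped by construction, and the number of other WNT pathway genes was 1 there. Leaving out each dog, it ran from 1 to 5 for members and from 0 (without 184844) to 5 (without 204714) for the other pathway genes, and the fold criteria were met by 0 to 1 members (RSPO3 without 153599, FRZB without 208756). With age as a covariate the differences of SFRP2, AXIN2 and CTNNB1 turned to -0.18, 0.20 and 0.022. With the mean of all probesets, those of WNT3, FZD7, FZD8 and CTNNB1 became -0.45, -0.036, -0.069 and 0.021. In osteoblastic tumors FZD10 became 0.33 and SFRP2 -0.25, and with quantile normalization AXIN2 became 0.0084. Without the Greyhounds WNT3, FZD10, FZD6 and DKKL1 became -0.011, 0.26, -0.18 and 0.17. Leaving out each dog, differences that changed sign ran from -0.011 to 0.12 for APC, -0.076 to 0.077 for AXIN2, -0.075 to 0.055 for CTNNB1, -0.15 to 0.14 for DKKL1, -0.43 to 0.079 for FZD10, -0.0053 to 0.15 for FZD7, -0.55 to 0.52 for SFRP2, -0.041 to 0.092 for TCF7L2 and -0.033 to 0.16 for WNT3. The cause of these changes was not tested. The count of members above the reporter level depended on how the level was set. It was 24 with the 90th percentile (5.30), 0 with the maximum, since 1 control read 13.43, and 9 with the maximum of the other controls (7.77), the last chosen after seeing the data. The listed relations gave 0 past adjustment under each alternative. Signal near background and 15 dogs limit what these comparisons can show. No paired analysis was possible because no dog number occurs in both cohorts.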
